A study of Mus musculus with 35 samples.

Results

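Simple keratins and desmosome genes form 10 of the 54446 genes in the expression table: the keratins Krt8, Krt18, Krt7 and Krt19, the desmosomal cadherins Dsg2 and Dsc2, the plaque genes Jup, Pkp2 and Dsp, and the desmosome-associated membrane gene Perp. They were taken by gene symbol, not by any measured value, and all 10 were found and passed the filter on low values in both sets of libraries. RNA was sequenced in bulk from 27 libraries, with 3 replicates in each of 9 groups.

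The embryo groups came from untreated embryos that the labels give as CD-1, of mixed sex. They were the inner cell mass (ICM) at embryonic day (E) 3.5 and the epiblast on each following day from E4.5 to E7.5. Per the study's methods, each library was a pool of embryos of wild-type CD1 or Pdgfrα:H2B-GFP reporter mice. The methods name the reporter line for E4.5, so the genotype may change with the stage there. The E3.5 ICM was cut away from the trophectoderm with a laser, E4.5 cells were hand-picked as GFP-negative after immunosurgery, and later epiblasts were dissected free of extra-embryonic tissue. The cultured groups were all wild-type pluripotent mouse cells: 3D epiblast stem cells (EpiSCs) started from embryonic stem cells (ESCs), 3D EpiSCs started from E5.5 epiblasts, 2D EpiSCs converted from ESCs with FGF2 and Activin A, and epiblast-like cells (EpiLCs), ESCs kept for 48 h in FGF2 and Activin A. Both 3D cultures grew inside Matrigel with FGF2, Activin A, XAV and Noggin. The medium and the geometry of the culture therefore changed together between 2D and 3D. Embryo-derived 3D EpiSCs also differed in origin from the ESC-based cultures, and this cannot be told apart from the culture. For such derivations the study's methods name LifeAct-GFP reporter and CD1 embryos, and which gave these libraries is not stated. Embryo and culture libraries were made with different kits and no test was made between them.

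Keratins are intermediate filament proteins that assemble as pairs of a type II chain (Krt7 or Krt8) with a type I chain (Krt18 or Krt19). These 4 are keratins of single-layered epithelia. Desmosomes are spot-like junctions that tie the keratin network of one cell to that of its neighbour. Desmogleins and desmocollins span the gap between cells, plakoglobin (Jup) and plakophilin (Pkp2) bind their tails, and desmoplakin (Dsp) links the plaque to keratin. In the early mouse embryo, simple keratins are best known from the trophectoderm, the outer epithelium of the blastocyst.

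Of the 4 keratins, Krt8 and Krt18 are neighbours on mouse chromosome 15 and run in opposite directions (Krt8 at chr15:101996698-102004482, minus strand, and Krt18 at chr15:102028180-102032027, plus strand, mm10). Krt7 lies on the same chromosome (chr15:101411043-101430313, plus strand). Krt19 (chr11:100140810-100148665) and Jup (chr11:100368958-100397763) share chromosome 11, both on the minus strand. Dsp (chr13:38151294-38198577), Pkp2 (chr16:16213318-16272712) and Perp (chr10:18845020-18857073) are on plus strands. The stretches shown are the bases just upstream of Krt8, Krt18, Dsp and Jup. They come from RefSeq promoter windows on GRCm38.p6, the same assembly as mm10. Of 8 members looked up (all but the desmosomal cadherins), 5 had an entry by symbol, Krt7 among them, whose window lies inside the gene as the expression table places it and is not shown. Each stretch ends at the last base before the gene or the RefSeq start. Capitals mark matches, on either strand, to GCCNNNGGC (the TFAP2 core) or GGGCGG (an SP1 box), and GGGCGG at -80 overlaps the TFAP2 core of Dsp. These are chr15:102004483-102004592 on the minus strand, chr15:102027966-102028179 on the plus strand, chr13:38151044-38151293 on the plus strand and chr11:100397791-100398040 on the minus strand, in that order.
Krt8: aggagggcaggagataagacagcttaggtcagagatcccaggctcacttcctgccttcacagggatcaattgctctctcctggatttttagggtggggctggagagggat
Krt18: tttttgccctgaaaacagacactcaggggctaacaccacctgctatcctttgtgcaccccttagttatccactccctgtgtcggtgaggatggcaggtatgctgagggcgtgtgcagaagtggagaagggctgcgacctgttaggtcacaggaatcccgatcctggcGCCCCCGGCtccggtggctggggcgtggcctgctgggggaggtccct
Dsp: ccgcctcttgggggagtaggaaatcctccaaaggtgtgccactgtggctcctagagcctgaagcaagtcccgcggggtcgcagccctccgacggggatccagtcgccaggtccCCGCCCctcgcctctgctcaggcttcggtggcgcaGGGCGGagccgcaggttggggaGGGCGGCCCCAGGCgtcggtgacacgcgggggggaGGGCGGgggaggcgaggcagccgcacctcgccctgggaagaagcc
Jup: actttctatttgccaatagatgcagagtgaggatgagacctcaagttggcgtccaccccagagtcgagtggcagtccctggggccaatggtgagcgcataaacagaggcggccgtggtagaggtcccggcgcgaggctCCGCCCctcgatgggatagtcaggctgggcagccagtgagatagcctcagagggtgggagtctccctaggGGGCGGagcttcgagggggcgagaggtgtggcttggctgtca

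Counted from the RefSeq start, the TFAP2 core began at -83 in Krt18 and at -75 in Dsp, and GCCNNNGGC occurs in 16.6% of the 32851 RefSeq windows of 300 bases. SP1 boxes stood at -137, -102, -80 and -45 in Dsp and at -112 and -42 in Jup, against 35.7% of all windows with at least 1. The Krt8 stretch held neither motif. The Krt7 window, not shown, held TFAP2 cores at -146 and -70 and SP1 boxes at -141, -128, -56 and -24. TGANTCA (7.81% of windows) and AACCNGTT (2.09%), the cores read by AP-1 and grainyhead-like factors, were searched too and matched none of the windows of these members. TATAAA (13.6% of windows) matched only at the start of Krt8. The motifs were chosen after the members' values were known, and a match is a description of letters, not a site.

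Levels are given in TPM (transcript abundance scaled to a fixed total per library), which corrects for gene length, so levels of different genes may be compared within a library. Differences are log2 fold changes of TPM plus 1 from limma, each with its standard error (SE). A gene was called when its Benjamini-Hochberg adjusted p, over all genes tested, was below 0.05 and its absolute log2 fold change was above 1. Embryo replicates were separate pools of embryos per the study's methods, but the sources used here do not say whether culture replicates came from separate cultures, so p-values among cultures measure a spread that may be technical. Since TPM keep no record of depth, the depth of each library is unknown and no counting interval can be given, and between 20324 and 26751 genes were above 0 in a library.

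The labelled cell type was present in every group: 8 to 10 of 10 epiblast and pluripotency markers averaged above 2 TPM, led by Pou5f1. Markers of other cells were not evenly spread. The 10 trophoblast markers summed to 481 to 499 TPM per library at E3.5 and 350 to 361 TPM at E4.5. Gata3, Cdx2, Gata2 and Elf5 were among the highest there, and Tpbpa was at 0. The list summed to 16.0 to 18.6 TPM at E5.5, 36.0 to 40.0 TPM at E6.5 and 158 to 170.2 TPM at E7.5. Hand1 (82.0 TPM on average) and Cdx2 (56.7 TPM) led it at E7.5, where Elf5 averaged 0.22 TPM. The 13 primitive and visceral endoderm markers summed to 795 to 823 TPM at E3.5, 451 to 485 TPM at E4.5 and 1103 to 1755 TPM from E5.5 on, where Apoa1, Ttr and Afp were high. In culture trophoblast markers summed to 8.87 to 13.01 TPM in both 3D groups and EpiLCs and to 47.3 to 50.8 TPM in 2D EpiSCs. In bulk RNA, fewer cells of a type and less RNA per cell cannot be told apart.

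In the embryo, Krt8 and Krt18 were among the most abundant transcripts before implantation, were several-fold lower at E5.5 and were higher again at E7.5. Krt8, the main type II chain of simple epithelia, stood at 1029.7, 1035.3 and 930.7 TPM at E3.5, 797, 814 and 750.2 TPM at E4.5, 114, 116 and 125 TPM at E5.5, 178, 151 and 177 TPM at E6.5 and 354, 335 and 332 TPM at E7.5. Its partner Krt18 stood at 1695, 1646 and 1705 TPM at E3.5, 1744, 1651 and 1603 TPM at E4.5, 202, 235 and 219 TPM at E5.5, 243, 224 and 221 TPM at E6.5 and 408, 396 and 402 TPM at E7.5. For Krt8 the 5 stages did not overlap, whereas for Krt18 E3.5 overlapped E4.5 and E5.5 overlapped E6.5. By mean TPM, Krt18 ranked 19 and Krt8 ranked 65 among 20774 autosomal protein-coding genes at E3.5, and they ranked 445 and 857 at E5.5.

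Krt7 and Krt19, the second type II and type I chains, followed another course, with a peak at E4.5. Krt7 was 6.52, 5.18 and 6.32 TPM at E3.5, 57.3, 48.4 and 53.4 TPM at E4.5, 2.93, 2.75 and 2.702 TPM at E5.5, 5.25, 4.56 and 4.65 TPM at E6.5 and 5.10, 3.42 and 3.92 TPM at E7.5. Krt19 was 2.23, 1.01 and 2.31 TPM at E3.5, 60.1, 44.2 and 56.5 TPM at E4.5, 6.76, 9.77 and 8.97 TPM at E5.5, 17.4, 16.7 and 17.1 TPM at E6.5 and 23.2, 22.8 and 22.0 TPM at E7.5. Every E4.5 library was above every library of the other stages for both genes. Krt7 and Krt19 together made up 0.29% ± 0.05 (SD, n = 3) of the summed TPM of the 4 keratins at E3.5 and 4.17% ± 0.47 (SD, n = 3) at E4.5.

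**Figure D1:**
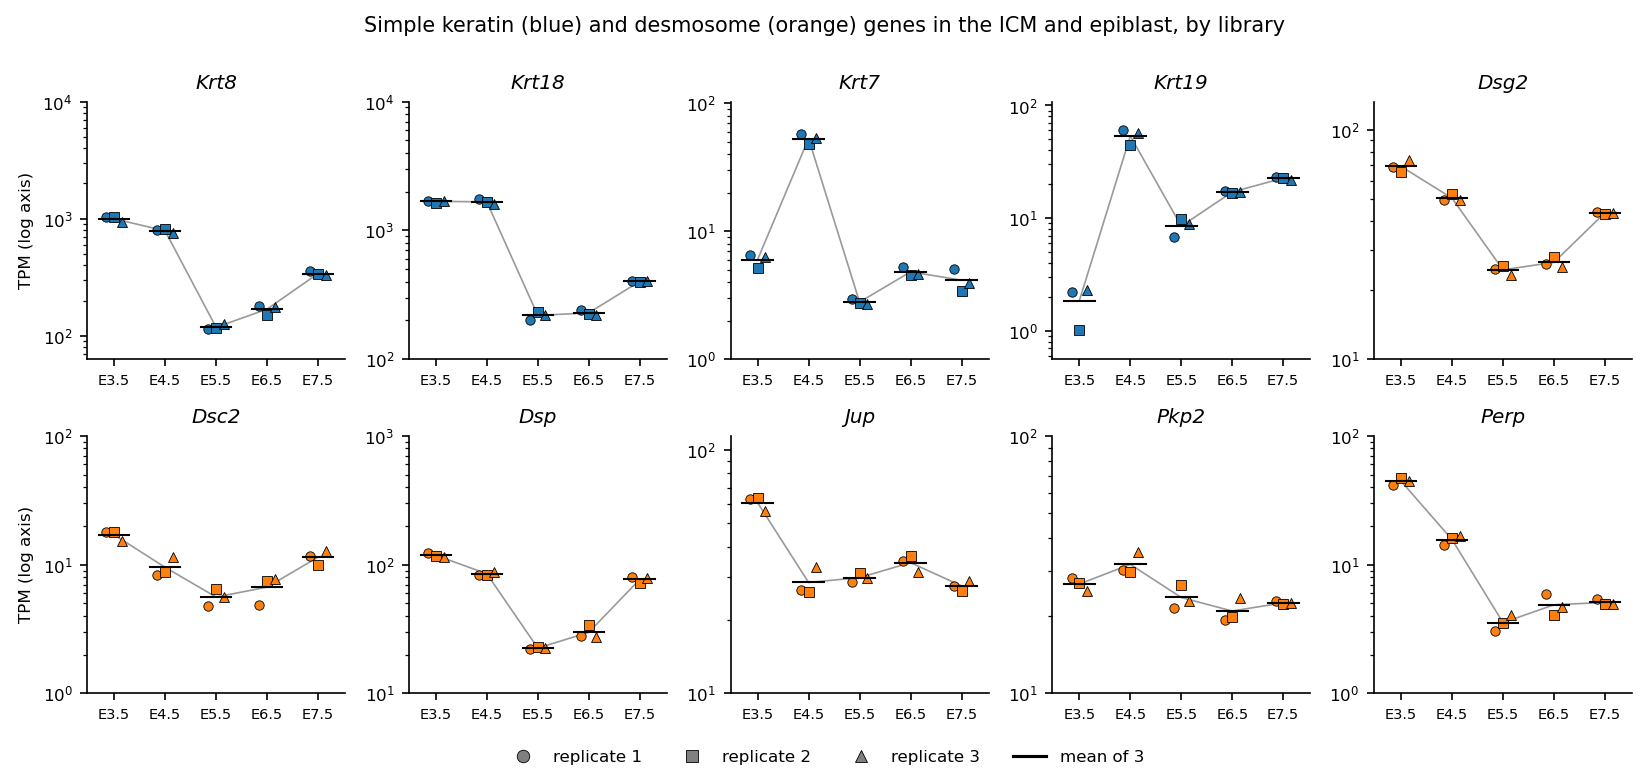
TPM on a log axis of each simple keratin (blue) and desmosome gene (orange) in the 3 libraries of each embryo stage, with a bar at the mean and a line joining the means. Krt8 and Krt18 sit above 750 TPM in all E3.5 and E4.5 libraries and below 250 TPM in all E5.5 and E6.5 libraries, Krt7 and Krt19 peak at E4.5, and Pkp2 stays between 19.3 and 35.4 TPM.

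Among the desmosome genes, Dsp, which anchors keratin to the plaque, was 123, 116 and 116 TPM at E3.5, 83.3, 83.2 and 88.1 TPM at E4.5, 22.2, 22.9 and 22.4 TPM at E5.5, 28.1, 34.0 and 27.3 TPM at E6.5 and 80.8, 71.4 and 78.4 TPM at E7.5. Dsg2 was 68.7, 65.3 and 73.7 TPM at E3.5, 49.4, 52.3 and 49.3 TPM at E4.5, 24.8, 25.4 and 23.3 TPM at E5.5, 26.1, 28.0 and 25.3 TPM at E6.5 and 44.0, 43.1 and 43.4 TPM at E7.5. Both were highest at E3.5 and lowest at E5.5, and only the E5.5 and E6.5 libraries of Dsg2 overlapped. The other desmosomal cadherin, Dsc2, which like Dsg2 lies on chromosome 18, was lower in every stage, between 15.1 and 18.02 TPM at E3.5, 8.28 and 11.5 TPM at E4.5, 4.78 and 6.42 TPM at E5.5, 4.83 and 7.75 TPM at E6.5 and 9.98 and 12.7 TPM at E7.5. Dsg2 exceeded Dsc2 by 3.85 to 5.40 times in the stage means of their ratio.

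The remaining plaque genes did not share this course. Jup, which also serves adherens junctions, was 62.7, 63.4 and 56.0 TPM at E3.5 and lay between 26.2 and 36.7 TPM in the other 12 libraries. Pkp2 lay between 19.3 and 35.4 TPM in all 15 libraries, the narrowest range of the 10 members as a ratio. Perp, a tetraspan protein of desmosome-bearing epithelia, was 41.6, 47.2 and 44.7 TPM at E3.5, 14.1, 16.2 and 16.6 TPM at E4.5 and at most 5.90 TPM from E5.5 on. The balance within the plaque is given by the ratio of its genes. The ratio of Jup to Dsp was 0.51 ± 0.03 at E3.5, 0.34 ± 0.03 at E4.5, 1.33 ± 0.03 at E5.5, 1.16 ± 0.08 at E6.5 and 0.36 ± 0.02 at E7.5 (SD, n = 3).

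From E3.5 to E4.5, 2 members rose and 2 fell, while 5.88% of the 11880 genes tested rose, 11.9% fell and 17.8% were called in either direction. The libraries of 9 members did not overlap between these stages, as held for 58.6% of genes tested, and the median change was -0.40 over the members and -0.10 over all genes tested. Consecutive steps share the libraries of a stage. Krt7 rose by 2.95 ± 0.12 (SE) on the log2 scale (adjusted p = 2.10e-10) and Krt19 by 4.28 ± 0.18 (adjusted p = 2.93e-10). Perp fell by 1.45 ± 0.12 (adjusted p = 2.40e-07), and Jup fell by 1.07 ± 0.10 (adjusted p = 8.82e-07). After TPM were rescaled by median-of-ratios factors the change of Jup was -0.95, and it was no longer called. Krt8, Dsp, Dsg2 and Dsc2 were lower at E4.5 with non-overlapping libraries and adjusted p of 0.00414 or less, but their changes, from -0.34 to -0.79, were short of the fold threshold. Krt18 did not pass (-0.01 ± 0.08, adjusted p = 0.899, 0.10 after rescaling). The isolation of the cells changed with the stage, and so may have the genotype, since E4.5 cells came from a Pdgfrα reporter line. Trophoblast markers moved in both directions (Cdx2 from 161 to 23.7 TPM, Elf5 from 49.7 to 127 TPM, Hand1 from 1.17 to 29.6 TPM). Of 12 tested primitive and visceral endoderm markers 6 fell and none rose, among them Pdgfra (114 to 3.23 TPM) and Gata6 (118 to 8.64 TPM). E4.5 cells had been picked as negative for the Pdgfrα reporter, so low Pdgfra and low primitive endoderm markers were selected for. The part of the isolation or of these markers' cells in the changes of the members was not tested.

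From E4.5 to E5.5, across implantation, 7 of the 10 members fell and none rose, where 9.47% of genes tested fell, 14.9% rose and 24.4% changed in either direction. Libraries of 9 members did not overlap, against 64.2% of genes tested. The keratins fell most: Krt7 was at -3.83 ± 0.12 on the log2 scale (adjusted p = 9.70e-12), Krt18 at -2.93 ± 0.08 (adjusted p = 2.09e-12), Krt8 at -2.73 ± 0.09 (adjusted p = 1.07e-11) and Krt19 at -2.53 ± 0.18 (adjusted p = 3.86e-08). As means, Krt8 at E4.5 was 6.66 times and Krt18 7.62 times the E5.5 level. Of the desmosome genes, Perp fell by 1.87 ± 0.12 (adjusted p = 1.21e-08) and Dsp fell by 1.87 ± 0.09 (adjusted p = 6.02e-10). Dsg2 fell by 1.01 ± 0.07 (adjusted p = 6.06e-08), a call lost without E4.5 replicate 2 (-0.98) or without E5.5 replicate 3 (-0.97). Dsc2 (-0.67) and Pkp2 (-0.41) passed the adjusted p but not the fold threshold, and Jup passed neither (0.07 ± 0.10, adjusted p = 0.561, -0.07 after rescaling). The median change was -1.87 over the 10 members and 0.16 over all genes tested.

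In the same step the summed trophoblast markers went from 350 to 361 TPM down to 16.0 to 18.6 TPM, with 5 of the 6 tested called lower. Of 12 tested primitive and visceral endoderm markers 6 rose and none fell, among them Apoa1 (0.79 to 359 TPM) and Ttr (0.91 to 84.8 TPM). Of 10 mesoderm and streak markers 4 rose and 1 fell, and of 5 tested non-neural ectoderm and amnion markers 2 fell and none rose. The part of any of these markers' cells in the keratin result was not tested. Kit fragmentation also changed here, from 6 min at 85 °C to 4 min at 94 °C. The dissection changed with it, as did the reporter line and selection used at E4.5, and these cannot be told apart from the stage.

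**Figure D2:**
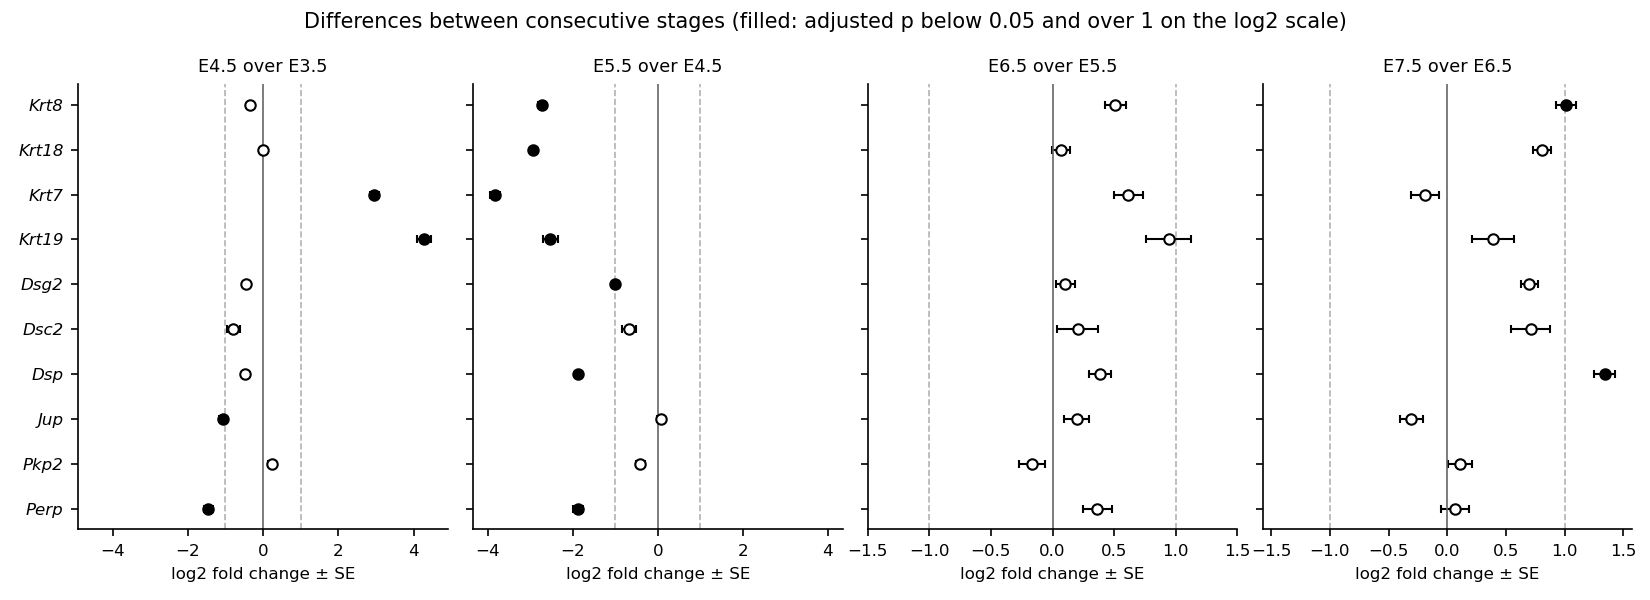
Log2 fold change (points) with its SE (bars) of each member between consecutive embryo stages, with filled points for called members and dashed lines at the fold threshold of 1. All filled points lie to the left in the step from E4.5 to E5.5, and the only filled points in the last step are Krt8 and Dsp, to the right.

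From E5.5 to E6.5 no member was called by limma, where 0.715% of genes tested rose, 0.480% fell and 1.20% were called in either direction. An unadjusted p under 0.05 was reached by 5 members, all higher at E6.5 (Krt8, Krt7, Krt19, Dsp and Perp), where 26.6% of genes tested reached it, and 5 had libraries that did not overlap, against 31.3% of genes tested. Krt19 came nearest, at 0.94 ± 0.18 on the log2 scale (adjusted p = 0.00527), and it was called at 1.02 with a pseudocount of 0.1 or after rescaling, and at 1.04 without E5.5 replicate 2. Krt8 (0.51 ± 0.09, adjusted p = 0.00257), Krt7 (0.62 ± 0.12, adjusted p = 0.00577) and Dsp (0.38 ± 0.09, adjusted p = 0.0148) also passed the adjusted p alone. Krt18 did not pass (0.07 ± 0.08, adjusted p = 0.625). In this step the median change was 0.28 over the members and -0.06 over all genes tested.

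From E6.5 to E7.5, during gastrulation, 2 members rose, Krt8 and Dsp, and none fell (10.6% of genes tested rose, 1.94% fell and 12.6% were called in either direction). Libraries of 7 members did not overlap, against 62.8% of genes tested. Dsp rose by 1.34 ± 0.09 on the log2 scale (adjusted p = 5.00e-08) and Krt8 by 1.01 ± 0.09 (adjusted p = 6.90e-07). Changes below the fold threshold were seen in Krt18 (0.81 ± 0.08), Dsc2 (0.71 ± 0.17) and Dsg2 (0.70 ± 0.07), all with adjusted p of 0.00291 or less and no overlap between libraries. Jup was lower at E7.5 (-0.31 ± 0.10, adjusted p = 0.0199), also short of the threshold. The median change was 0.54 over the members and 0.31 over all genes tested, and the latter was 0.01 after rescaling. Relative to that shift the call of Dsp held (1.01 after rescaling), and that of Krt8 did not (0.67). Krt8 was also not called without E6.5 replicate 2 (0.93) or without E7.5 replicate 1 (0.98), which left 1 called member of 2.

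Markers of the labelled cell type and of other lineages moved in the same step. Of 10 epiblast and pluripotency markers, 8 fell and none rose (median -1.64), and their sum went from 1485 to 1566 TPM at E6.5 to 469.98 to 497 TPM at E7.5. Of the 10 mesoderm and streak markers 7 rose and 3 fell (Mixl1, Lhx1 and Mesp1), with sums of 172 to 213 TPM and 317 to 333 TPM. The 8 non-neural ectoderm and amnion markers summed to 4.24 to 5.83 TPM and 51.9 to 56.5 TPM, and 4 of 5 tested rose. All 3 tested neural ectoderm markers rose, and of 12 tested endoderm markers 1 rose (Pdgfra, 14.5 to 89.7 TPM) and none fell. Of 6 tested trophoblast markers, 4 rose, among them Cdx2 (5.27 to 56.7 TPM), Hand1 (9.73 to 82.0 TPM) and Gata3, and 2 fell, Elf5 (4.79 to 0.22 TPM) and Fgfbp1 (9.19 to 1.60 TPM). The part of these cell types in the rise of Krt8 and Dsp was not tested.

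**Figure D3:**
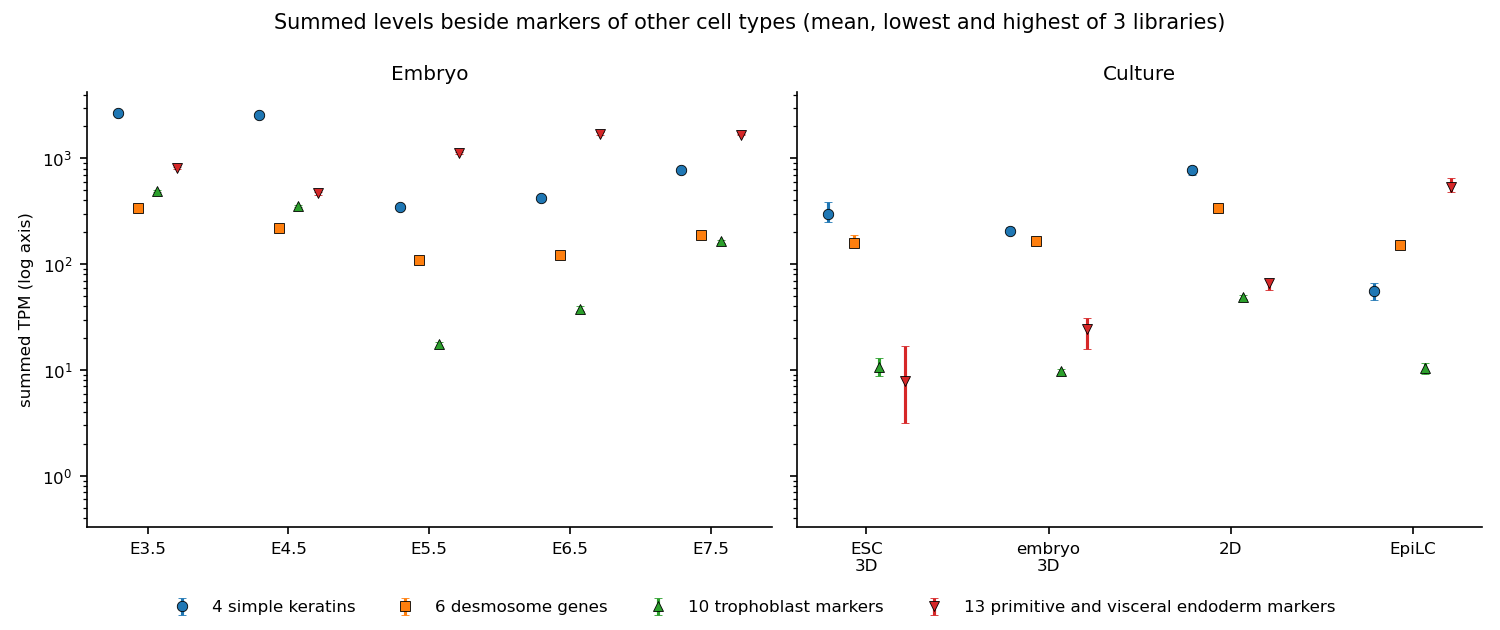
Summed TPM (log axis) of the 4 simple keratins, the 6 desmosome genes, 10 trophoblast markers and 13 primitive and visceral endoderm markers in each group, with the mean as a point and the lowest and highest of 3 libraries as bars. Keratin and trophoblast sums are both high at E3.5 and E4.5 and low at E5.5, while in culture keratin sums run from 56.1 TPM in EpiLCs to 783 TPM in 2D EpiSCs with trophoblast sums at or below 50.8 TPM, and 528 of the 539 TPM of endoderm markers in EpiLCs are Rhox5.

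The ratio of the paired chains was not constant. Krt8 over Krt18 was 0.59 ± 0.04 at E3.5, 0.47 ± 0.02 at E4.5, 0.54 ± 0.04 at E5.5, 0.74 ± 0.06 at E6.5 and 0.85 ± 0.02 at E7.5 (SD, n = 3), so type I transcripts exceeded their type II partner at every stage. In culture it was 0.64 ± 0.06 in the 3D group from ESCs, 0.63 ± 0.05 in the 3D group from embryos, 0.95 ± 0.09 in 2D EpiSCs and 0.41 ± 0.05 in EpiLCs. A processed pseudogene, Krt8-ps, was listed at 1.81% to 5.79% of the TPM of Krt8 in the group means, highest at E3.5 (53.6 to 62.9 TPM). Reads may have been split between the gene and this copy, and the resulting error in the level of Krt8 was not measured.

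In culture, 9 of the 10 members were highest in 2D EpiSCs by mean, and 8, all but Jup and Pkp2, were lowest in EpiLCs. Krt8 was 339, 323 and 286 TPM in 2D EpiSCs, 95.6, 101 and 131 TPM in the 3D group from ESCs, 83.5, 70.5 and 70.3 TPM in the 3D group from embryos and 16.3, 16.6 and 11.7 TPM in EpiLCs. Krt18 was 371, 366 and 272 TPM in 2D EpiSCs, 146, 148 and 229 TPM in the 3D group from ESCs, 122, 114 and 120 TPM in the 3D group from embryos and 35.2, 45.4 and 29.5 TPM in EpiLCs. The 4 groups did not overlap for either gene, where single pairs of cultures did not overlap for 39.2% to 67.5% of genes tested. Krt18 ranked 346 and Krt8 ranked 373 in 2D EpiSCs, and 3836 and 6530 in EpiLCs.

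Krt19 separated 2D EpiSCs most widely, at 125, 124 and 133 TPM. It was 6.43, 6.44 and 20.3 TPM in the 3D group from ESCs, 10.1, 4.65 and 3.58 TPM in the 3D group from embryos and 3.35, 3.56 and 4.01 TPM in EpiLCs. The lowest 2D library was thus several-fold above the highest of any other culture, and the 3D groups overlapped each other, as did the embryo-derived group and EpiLCs. Krt7 was low throughout, at 5.69 to 8.17 TPM in embryo-derived 3D EpiSCs, 3.75 to 4.02 TPM in 2D EpiSCs and 0.70 to 1.04 TPM in EpiLCs, and it was 1.58, 1.75 and 6.61 TPM in ESC-derived 3D EpiSCs.

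Dsp was 71.2, 74.5 and 75.1 TPM in 2D EpiSCs, 9.65, 9.69 and 19.8 TPM in the 3D group from ESCs, 20.2, 15.002 and 15.7 TPM in the 3D group from embryos and 4.16, 2.88 and 3.96 TPM in EpiLCs. Perp was 47.6 to 52.7 TPM in 2D EpiSCs, 30.3 to 31.7 TPM in embryo-derived 3D EpiSCs, 19.7 to 21.2 TPM in ESC-derived 3D EpiSCs and 11.4 to 15.7 TPM in EpiLCs. Its 4 groups did not overlap, and for Dsp only the 3D groups overlapped.

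Of the cadherins, Dsc2 was 19.5, 20.5 and 13.96 TPM in 2D EpiSCs, 6.08, 6.26 and 11.2 TPM in the 3D group from ESCs, 8.99, 6.64 and 6.85 TPM in the 3D group from embryos and 2.36, 2.33 and 1.97 TPM in EpiLCs. Dsg2 was 31.7, 30.7 and 28.4 TPM in 2D EpiSCs, 14.9, 14.3 and 26.6 TPM in the 3D group from ESCs, 25.4, 24.2 and 21.6 TPM in the 3D group from embryos and 9.86, 7.29 and 6.05 TPM in EpiLCs. For both, 2D EpiSCs lay above and EpiLCs below all other libraries, and the 3D groups overlapped. Dsg2 over Dsc2 averaged 1.72 in 2D EpiSCs and 3.46 in EpiLCs.

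Jup and Pkp2 behaved otherwise. Pkp2 was 75.1, 76.1 and 88.9 TPM in 2D EpiSCs and 89.4, 70.9 and 64.8 TPM in EpiLCs, which overlapped, and it lay between 43.2 and 56.4 TPM in the 6 libraries of 3D EpiSCs. Jup was 81.7 to 88.2 TPM in 2D EpiSCs, 45.7 to 55.7 TPM in EpiLCs, 48.4 to 60.6 TPM in ESC-derived and 33.4 to 40.1 TPM in embryo-derived 3D EpiSCs. Pkp2 over Dsp (mean ± SD, n = 3) was 20.8 ± 4.17 in EpiLCs, 1.09 ± 0.09 in 2D EpiSCs, 3.89 ± 1.15 in the 3D group from ESCs and 2.86 ± 0.07 in the 3D group from embryos. The ranges of the 3D groups overlapped.

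**Figure D4:**
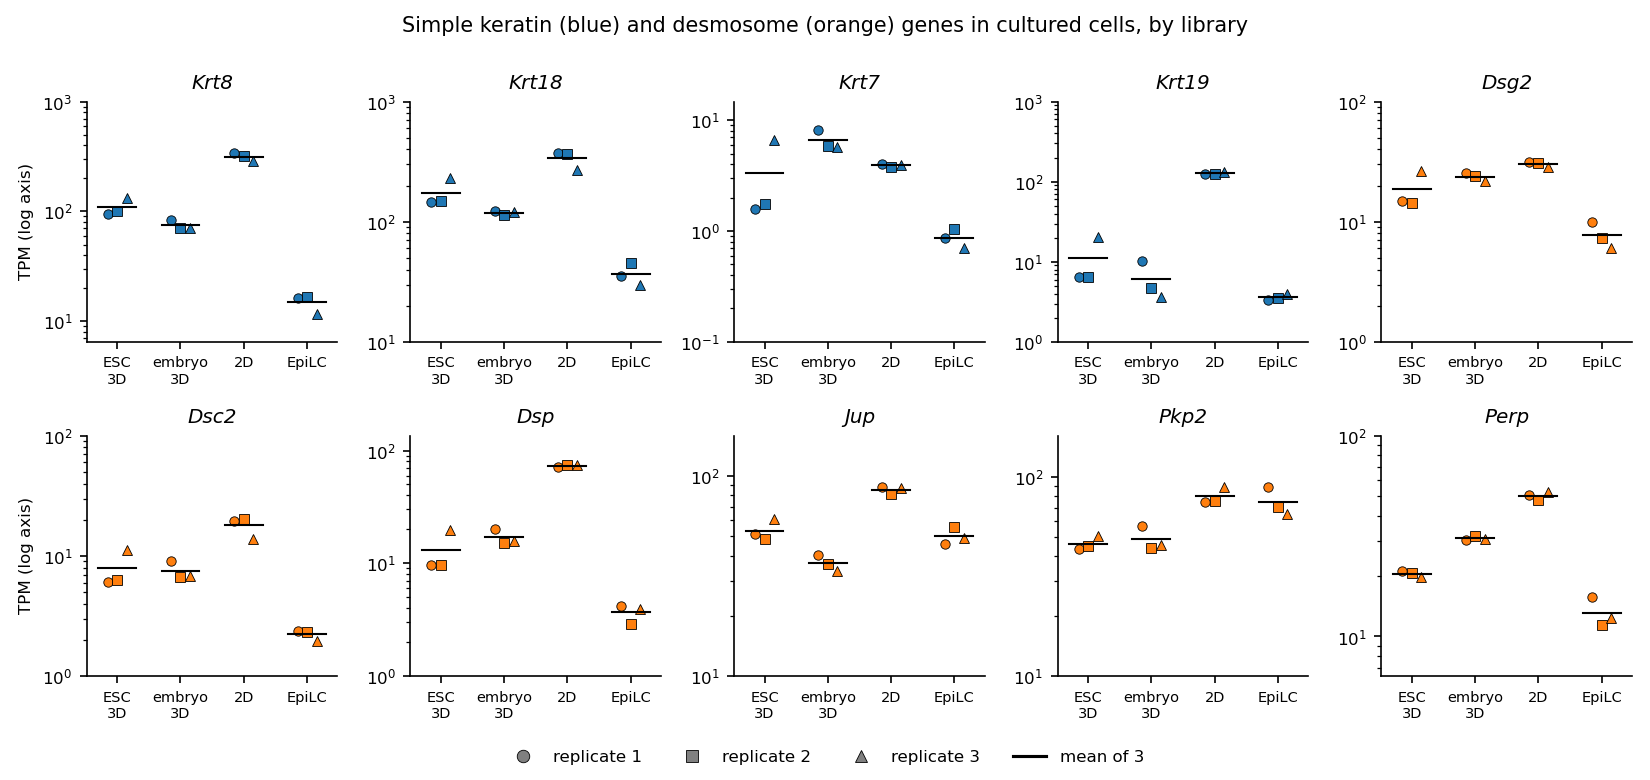
TPM on a log axis of each simple keratin (blue) and desmosome gene (orange) in the 3 libraries of each culture, with a bar at the mean. Replicate 3 of ESC-derived 3D EpiSCs (triangle) lies above replicates 1 and 2 in 9 of the 10 panels, 2D EpiSCs are highest for all but Krt7, and EpiLCs are lowest for 8 members.

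Replicate 3 of ESC-derived 3D EpiSCs stood apart from replicates 1 and 2 over all genes tested, with a median absolute difference of 0.27 on the log2 scale against each. Replicates 1 and 2 of that group, 2 and 3 of embryo-derived 3D EpiSCs and 1 and 2 of 2D EpiSCs differed by only 0.06 each. Whether such pairs are separate libraries within sampling noise cannot be tested on TPM, so each counted as a sample, and averaging them changed 1 call of a member (Dsc2, ESC-derived 3D against 2D EpiSCs).

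Compared with 2D EpiSCs, 5 of the 10 members were lower in ESC-derived 3D EpiSCs and none was higher, where 9.25% of the 11541 genes tested were lower, 0.633% were higher and 9.89% were called in either direction. Libraries of 9 members did not overlap, against 56.7% of genes tested. Krt19 was lower by 3.60 on the log2 scale (-3.60 ± 0.38, adjusted p = 4.70e-05), Dsp was at -2.48 ± 0.23 (adjusted p = 1.88e-05) and Krt8 was at -1.53 ± 0.16 (adjusted p = 3.44e-05). Perp (-1.25 ± 0.11, adjusted p = 1.35e-05) and Dsc2 (-1.13 ± 0.21, adjusted p = 0.00157) were called too, but not after rescaling, which left 3 called members. Krt18, Jup, Pkp2 and Dsg2 passed the adjusted p with changes of -0.96 to -0.68, and Krt7 passed neither (-0.38 ± 0.32, adjusted p = 0.357). Without ESC-derived replicate 3 both Krt18 (-1.18) and Dsg2 (-1.002) were called, for 7 members in all. The median change was -1.05 over the members and -0.21 over all genes tested (0.02 after rescaling).

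Embryo-derived 3D EpiSCs gave 6 lower members of 10 against 2D EpiSCs and none higher (7.75% of genes tested were lower, 1.07% were higher and 8.82% were called in either direction). For all 10 the libraries did not overlap, against 58.2% of genes tested. The lower members were Krt19 (-4.28 ± 0.38, adjusted p = 1.04e-05), Krt8 (-2.07 ± 0.16, adjusted p = 3.06e-06), Dsp (-2.06 ± 0.23, adjusted p = 5.16e-05), Krt18 (-1.48 ± 0.20, adjusted p = 0.000200), Jup (-1.21 ± 0.11, adjusted p = 1.48e-05) and Dsc2 (-1.15 ± 0.21, adjusted p = 0.00157). Pkp2 and Perp passed the adjusted p alone, at -0.72 and -0.69. Krt7 was the only member with a higher mean in this 3D group, 6.56 against 3.901 TPM, and it did not pass the test (0.61 ± 0.32, adjusted p = 0.172). Over the members the median change was -1.18, and over all genes tested it was -0.08. Both comparisons share the 2D libraries, and the embryo-derived group differs from them in origin as well.

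Markers of other lineages also differed here, not all of them in the direction of the keratins. Of the trophoblast markers, all 3 tested (Fgfbp1, Gata3 and Ascl2) were lower in ESC-derived and 2 of 3 in embryo-derived 3D than in 2D EpiSCs, with Fgfbp1 at 7.41 and 5.75 against 33.1 TPM. The list summed to 8.87 to 13.01 TPM in 3D and 47.3 to 50.8 TPM in 2D EpiSCs, where Cdx2, Elf5 and Gata2 were at or below 0.41 TPM and Tpbpa was at 0. The primitive and visceral endoderm markers summed to 3.19 to 16.9 TPM and 15.9 to 30.8 TPM in the 3D groups and 56.7 to 72.9 TPM in 2D EpiSCs. Of 5 tested, 4 were lower in the ESC-derived group, led by Sox17, Gata6 and Gata4, and 2 were lower and 1 was higher in the embryo-derived group (Sox17, Gata4 and Pdgfra). Gata4 averaged 0.23 and 0.55 against 8.23 TPM, and Ttr and Afp were at or below 0.26 TPM in the 2D libraries.

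The mesoderm and streak markers summed to 17.99 to 52.4 TPM in ESC-derived 3D, 86.1 to 116 TPM in embryo-derived 3D and 124 to 155 TPM in 2D EpiSCs. Of 3 tested, 1 was lower in the ESC-derived group (Lhx1, 8.49 against 101 TPM, -4.30 on the log2 scale) and 1 was higher in the embryo-derived group (Mixl1, 18.9 against 6.61 TPM). Both tested non-neural ectoderm markers, Grhl3 and Dlx3, were lower in each 3D group, and that list summed to 2.43 to 4.75 TPM in 3D and 14.1 to 18.2 TPM in 2D EpiSCs. Of the 10 epiblast and pluripotency markers none was called in either comparison. The part of cells with any of the other markers in the keratin and desmosome result was not tested.

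Against EpiLCs, 8 members were higher in 2D EpiSCs and none was lower (15.2% of genes tested were higher, 5.14% were lower and 20.4% were called in either direction). Libraries of 9 members did not overlap, against 67.5% of genes tested. Krt19 rose most, by 4.79 ± 0.38 on the log2 scale (adjusted p = 1.16e-06), followed by Krt8 at 4.33 ± 0.16 (adjusted p = 1.83e-09), Dsp at 4.01 ± 0.23 (adjusted p = 7.81e-08) and Krt18 at 3.17 ± 0.20 (adjusted p = 1.62e-07). As means, Krt19 was 35.0 times, Krt8 21.3 times and Dsp 20.1 times the EpiLC level. Dsc2, Perp, Dsg2 and Krt7 were called with changes of 2.54 to 1.39. Jup passed the adjusted p alone (0.76 ± 0.11), and Pkp2 did not pass (0.10 ± 0.14, adjusted p = 0.557, -0.14 after rescaling). Over the members the median change was 2.21, and over all genes tested it was 0.18. All 3 tested trophoblast, all 3 mesoderm and 3 of 5 endoderm markers were higher in 2D EpiSCs too, and none was lower. The 2 tested non-neural ectoderm markers were also higher. Of 10 epiblast and pluripotency markers 2 were higher and 2 were lower. Gata3 was at 7.78 against 0.06 TPM and Gata6 at 21.5 against 0.19 TPM. The part of cells with these markers in the result was not tested.

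The 3D groups were each higher than EpiLCs in 7 members and lower in none. In embryo-derived 3D EpiSCs these were Krt8 (2.27 ± 0.16), Krt7 (2.00 ± 0.32), Dsp (1.95 ± 0.23), Krt18 (1.69 ± 0.20), Dsg2 (1.52 ± 0.21), Dsc2 (1.39 ± 0.21) and Perp (1.18 ± 0.11), with adjusted p of 0.000282 or less, where 10.5% of genes tested were higher, 8.28% were lower and 18.8% were called in either direction. Libraries of 9 members did not overlap, against 63.9% of genes tested. Krt19 was not called (0.51 ± 0.38, adjusted p = 0.279). In ESC-derived 3D EpiSCs the members were Krt8 (2.80 ± 0.16), Krt18 (2.21 ± 0.20), Dsp (1.52 ± 0.23), Dsc2 (1.41 ± 0.21), Krt19 (1.19 ± 0.38), Dsg2 (1.13 ± 0.21) and Krt7 (1.02 ± 0.32), with adjusted p of 0.0251 or less, where 5.33% of genes tested were higher, 7.11% were lower and 12.4% were called in either direction. Libraries of 9 members did not overlap, against 50.4% of genes tested. Among the ESC-derived calls, 3 were lost when single libraries were left out. Without ESC-derived replicate 3, or without EpiLC replicate 3, Krt19, Dsg2 and Krt7 were not called, which left 4 members. Krt19 was also not called without EpiLC replicate 1 or without EpiLC replicate 2, and Krt7 was not called without EpiLC replicate 1. Pkp2 was lower in both 3D groups than in EpiLCs with no overlap of libraries (-0.68 ± 0.14 and -0.61 ± 0.14), short of the fold threshold. The median change was 1.46 over the members in the embryo-derived group and 1.16 in the ESC-derived group, against 0.10 and 0.01 over all genes tested. All 3 tested mesoderm and streak markers were also higher in each 3D group than in EpiLCs. Of 5 tested endoderm markers, 3 were higher and 1 was lower in the embryo-derived group. In the ESC-derived group 1 was lower and none was higher. No tested trophoblast or non-neural ectoderm marker was called. The part of cells with these markers in the result was not tested. The 3 comparisons with EpiLCs share those libraries.

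**Figure D5:**
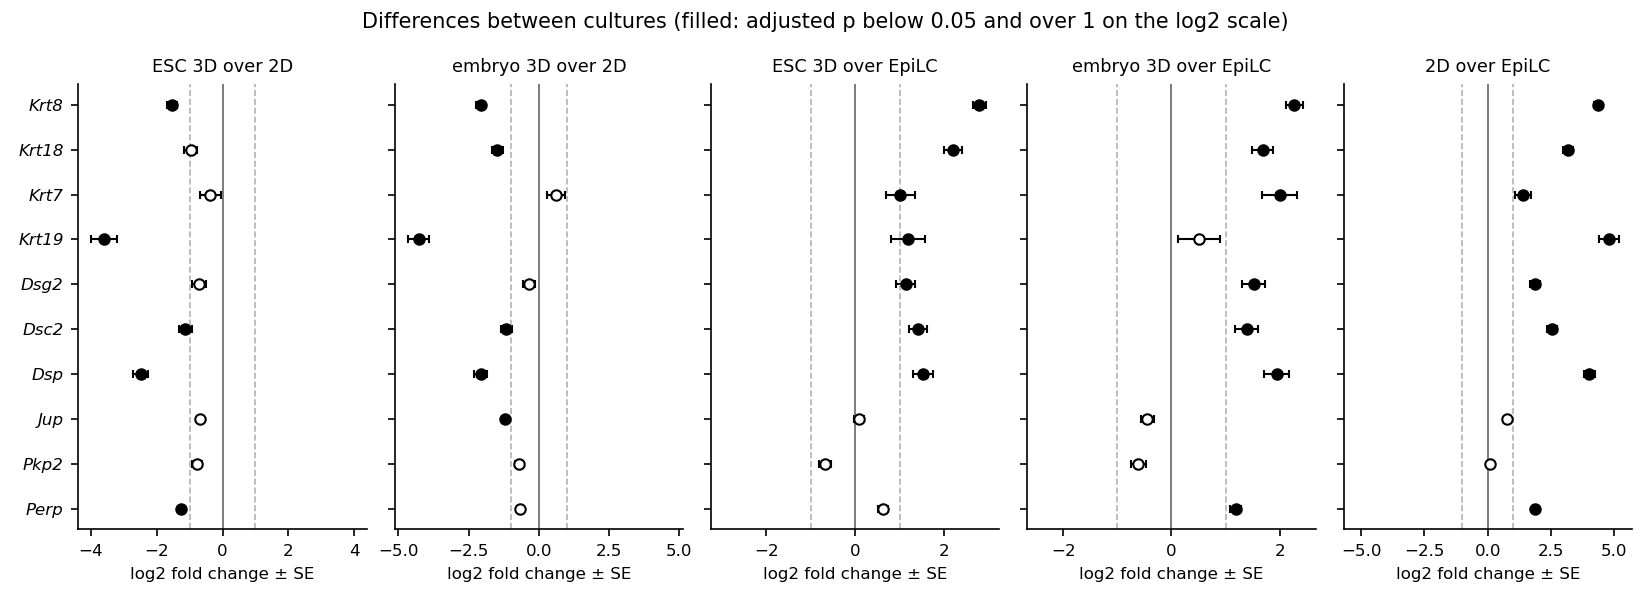
Log2 fold change (points) with its SE (bars) of each member in 5 comparisons of cultures, with filled points for called members and dashed lines at the fold threshold of 1. Krt8 and Dsp are filled in every panel, to the left against 2D EpiSCs and to the right against EpiLCs, whereas Pkp2 is open in every panel.

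Between the 2 origins of 3D EpiSCs no member was called by limma, where 1.98% of genes tested were higher, 1.98% were lower and 3.96% were called in either direction. Libraries of 4 members did not overlap, against 39.2% of genes tested. An unadjusted p under 0.05 was reached by 5 members and by 37.5% of genes tested. Of these members, Krt8 (0.53 ± 0.16, adjusted p = 0.0334), Krt18 (0.52 ± 0.20, adjusted p = 0.0833) and Jup (0.53 ± 0.11, adjusted p = 0.00905) were higher in the ESC-derived group, and Perp (-0.56 ± 0.11, adjusted p = 0.00527) and Krt7 (-0.98 ± 0.32, adjusted p = 0.0499) were lower. Without ESC-derived replicate 3, Krt7 was called at -1.49. Medians of the change were -0.02 over the members and -0.12 over all genes tested. The 2 groups overlapped for Krt7, Krt19, Dsg2, Dsc2, Pkp2 and Dsp.

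Outside the 10 members, other epithelial keratins were near absent. Of 16 listed, at most 2 averaged above 2 TPM in any group, and the 16 together summed to 0.7 to 13.5 TPM per library. Krt80 was lower in both 3D groups than in 2D EpiSCs (1.12 and 0.29 against 7.09 TPM), Krt17 was higher in EpiLCs than in each other culture (3.17 TPM against at most 0.99 TPM), and Krt13 was lower at E4.5 than at E3.5 (0 against 3.85 TPM). Of 12 further desmosome and cornified-plaque genes, at most 2 averaged above 2 TPM in a group and 3 could be tested. Among them Pkp3, another plakophilin, averaged 0.69 TPM in embryo-derived 3D EpiSCs and 6.72 TPM in 2D EpiSCs (-2.20 on the log2 scale), and Ppl, a plakin, rose from E6.5 to E7.5 (2.93 to 8.65 TPM, 1.301 on the log2 scale).

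Cytolinkers and hemidesmosome genes attach filaments at other sites. Of 8 tested, 3 were lower in each 3D group than in 2D EpiSCs (Dst, Eppk1 and Itgb4, with medians of -0.89 and -0.56 over the list), and 1 rose and 1 fell from E4.5 to E5.5, where Itgb4, the hemidesmosomal integrin chain, fell by 2.91 on the log2 scale from 8.79 to 0.30 TPM. Of 12 adherens junction genes, 3 and 2 were lower in ESC-derived and embryo-derived 3D EpiSCs than in 2D EpiSCs, Cdh3 and Vcl in both. From E4.5 to E5.5, 2 of them rose (Cdh2 and Nectin1) and 2 fell (Cdh3 and Vcl), with a median of -0.07 over the list against 0.16 over all genes. Among 11 tested intermediate filament genes that are no keratins, 5 rose and 2 fell in that step. Lmna, a nuclear lamin, fell by 3.25, from 86.2 to 8.13 TPM, and Vim, the filament of mesenchymal cells, rose by 2.57 from E6.5 to E7.5, from 37.5 to 227 TPM.

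Of 13 epithelial transcription and splicing regulators tested in the embryo, 9 fell and none rose from E4.5 to E5.5 (median -1.92), led by Tfap2a (76.5 to 0.80 TPM), Gata3 (87.8 to 1.32 TPM) and Tfap2c (122 to 3.57 TPM), all of which are also expressed in trophoblast. From E6.5 to E7.5 Tfap2a (2.05 to 24.2 TPM) and Gata3 (1.52 to 10.7 TPM) rose and Ovol2 fell (6.36 to 1.76 TPM). In culture, 5 of 11 were lower and 1 was higher in each 3D group than in 2D EpiSCs, with Grhl3 at 2.65 and 2.58 against 12.8 TPM and Klf4 at 16.5 and 17.0 against 3.54 TPM. Repressors of epithelial genes, such as the Snail and Zeb families, were higher in the last step: of 5 tested, 4 rose from E6.5 to E7.5 and none fell, with Zeb2 at 4.38 and 57.5 TPM, Zeb1 at 1.08 and 13.6 TPM and Snai2 at 0.16 and 10.2 TPM.

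By Pearson correlation of log2 levels over the 15 embryo libraries, which share stages and dissections, the genes most like Krt8 among 11880 were Id2 (r = 0.995), Pon2 (0.988), Gata2 (0.987), Dnajb11 (0.986) and Aqp3 (0.986). Those most like Dsp were Fgfr2 (0.992), H2afy (0.990), Capn2 (0.989), Zmiz1 (0.986) and Eea1 (0.984). Krt18 stood at 0.974 (rank 32) and Dsg2 at 0.965 (rank 57) to Krt8, Dsg2 at 0.979 (rank 8) to Dsp, and Krt19 at -0.09 to both.

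Over the 12 culture libraries, which fall into the culture groups, Krt18 was the gene most like Krt8 (r = 0.992), followed by Ppp1r18 (0.986), Marveld2 (0.986), Chmp2b (0.985) and Slc35c1 (0.984). The 5 most like Dsp were Col5a1 (0.988), Cltc (0.986), Pnrc1 (0.985), Fam107b (0.984) and Otx2 (0.983). Pkp2 stood at 0.00 to Krt8 and 0.22 to Dsp. These values describe the order of group levels and carry no test.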

How the data were processed

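RNA-seq of 27 libraries was used (12 cultured, 15 embryonic), and 8 single-cell and methylation samples of the series were not analysed here. Per the labels and methods, culture libraries were made with poly-A selection (TruSeq Stranded mRNA, 8 PCR cycles) and embryo libraries with a total RNA kit with ribosomal cDNA depletion (SMARTer Pico, 13 cycles). The authors mapped reads to mm10 with STAR and computed TPM with StringTie on GENCODE genes, and the deposited TPM add up to an equal total per library, so that a rise in some genes lowers all others and the depth of a library is unknown. The submitters' processing notes name cutadapt 2.4.

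A count test cannot be run on TPM. limma 3.58.1 (R 4.3.3, eBayes without trend) was fitted to log2(TPM + 1), for cultures and embryos separately, with all groups of a set in 1 fit that shares the spread. Lines of 1 identifier were summed, which left 54446 genes. Autosomal protein-coding genes (GENCODE vM21) above 2 TPM in at least 3 libraries were tested, and p-values were adjusted by Benjamini-Hochberg over all genes of a comparison. A fold change on this scale understates the change of low genes. The procedure was tested on simulated data. Tables and plots used Python 3.11.15 with pandas 2.3.3 and matplotlib 3.10.9.

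The members, gene lists and tests were chosen with earlier results of these data known. Named genes are the 10 members, up to 3 called genes per direction with the largest change in each list and comparison, and the 5 genes with the highest Pearson r to Krt8 and to Dsp in each set. Alternatives were a pseudocount of 0.1, rescaled TPM, no filter, all genes, an intensity trend, only the compared groups, a replicate block, averaged near-identical replicates and leaving out each library.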

Additional observations from a re-analysis of the deposited data

How the results depend on the processing

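Without a filter on low values, with all genes past the filter, with an intensity trend or with a replicate block, the direction and the call of each member were as reported in all 100 of 100 member and comparison pairs. After rescaling TPM by median-of-ratios factors, 89 of 100 were as reported, and the number of called members went from 5 to 3 between ESC-derived 3D and 2D EpiSCs (Dsc2 at -0.89 and Perp at -0.9997 were not called), from 4 to 3 between E3.5 and E4.5 (Jup at -0.95), from 0 to 1 between E5.5 and E6.5 and from 2 to 1 between E6.5 and E7.5. A pseudocount of 0.1 also gave 1 called member between E5.5 and E6.5, Krt19. The cause of these changes was not tested. Using only the compared groups ended 2 calls, Krt7 (adjusted p = 0.0817) and Krt19 (adjusted p = 0.0502) of ESC-derived 3D EpiSCs against EpiLCs by limma, and averaging near-identical replicates ended 1 of 60, Dsc2 at -0.92 against 2D EpiSCs.

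Leaving out 1 library at a time gave 4 to 7 called members for ESC-derived 3D EpiSCs against 2D EpiSCs and 4 to 7 against EpiLCs, 0 to 1 between the 3D groups, 6 to 7 from E4.5 to E5.5, 0 to 1 from E5.5 to E6.5 and 1 to 2 from E6.5 to E7.5, while the other 4 comparisons gave their reported count each time. Changes that turned sign were all of members that had not been called. After rescaling these were Pkp2 in 2D EpiSCs against EpiLCs (-0.14), between the 3D groups (0.0759) and from E6.5 to E7.5 (-0.22), Perp in that last step (-0.22), Krt18 from E3.5 to E4.5 (0.10) and Jup from E4.5 to E5.5 (-0.0742). With 1 library left out, the log2 fold change ranged from -0.00666 to 0.16 for Jup in ESC-derived 3D EpiSCs against EpiLCs, from -0.23 to 0.16 for Dsc2 and from -0.13 to 0.0491 for Pkp2 between the 3D groups, from -0.0478 to 0.0128 for Krt18 from E3.5 to E4.5 and from -0.0393 to 0.18 for Perp from E6.5 to E7.5.

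Groups share replicate numbers, but same-numbered libraries did not deviate together (mean r of -0.03 over 18 pairs in culture and -0.02 over 30 pairs in the embryo), so the numbers were not taken to pair the samples. A fit with the replicate number as a block left the count of called members as it was in each comparison, 5 for ESC-derived 3D against 2D EpiSCs and 7 against EpiLCs among them. Depth is not recorded in TPM, so differences among members below a few TPM, such as Krt7 in culture, carry a counting error that cannot be stated.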
